A study of Mus musculus with 93 samples.

Results

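Linker histone H1 proteins bind where DNA enters and leaves the nucleosome. The genes measured here were the 8 that the deposited count tables list as H1f0, H1fx, Hist1h1a, Hist1h1b, Hist1h1c, Hist1h1d, Hist1h1e and Hist1h1t. They were taken by name, with no measured value in the choice, and are 8 of 33924 gene names. Another 3 linker histone genes, the oocyte gene H1foo and the spermatid genes Hils1 and H1fnt, served for comparison. They had at most 6, 2 and 7 counts in any library and were not tested. RNA was sequenced in 12 libraries of mouse R1 embryonic stem cells, an established line grown with serum and leukaemia inhibitory factor (LIF). Set 1 held 3 libraries of wild type cells and 3 of cells with Ring1b I53A, a point mutation in the catalytic subunit that ubiquitinates histone H2A within Polycomb repressive complex 1. Set 2 held 3 libraries of wild type cells and 3 with the genotype label H1b/c/d/e-QKO, a quadruple knockout of linker histone genes. No transgene, drug or shared deletion is named for any of these groups, and the labels do not say how many clones each mutant stands for, or which bases the knockout removed.

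Linker histones hold neighbouring nucleosomes together and compact chromatin. Most of a dividing cell's H1 is encoded by the replication-dependent genes Hist1h1a to Hist1h1e. Their mRNAs are made in S phase and usually end in a stem-loop in place of a poly(A) tail. H1f0 and H1fx are replacement genes outside that cluster, with polyadenylated mRNAs that are made throughout the cell cycle, and H1f0 is known to accumulate in differentiated and non-dividing cells. Hist1h1t lies in the cluster but is known as the testis-specific subtype of meiotic germ cells. The RNA selection of these libraries was not stated in the labels, so levels of stem-loop and polyadenylated mRNAs cannot be set against each other as cellular amounts.

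The 6 Hist1h1 genes lie together on mouse chromosome 13 (mm9, the build of the count tables). Between 23646901 and 23856283 lie Hist1h1d, Hist1h1e, Hist1h1t, Hist1h1c and Hist1h1a, a stretch of 209.4 kb, and Hist1h1b (21871752 to 21872494, minus strand) is 1.774 Mb away. Each was annotated as a single exon and had a core histone gene within 4607 bases. H1f0 lies on chromosome 15 (78859152 to 78859689, plus strand), where 534 bases in 3 intervals were counted, and H1fx on chromosome 6 (87930416 to 87931476, minus strand), with 1061 bases in 1 exon.

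The 130 bases before each start site are printed to show what separates the cluster genes from H1f0 and H1fx, and Hist1h1a from the other cluster genes. They are RefSeq sequences of build GRCm38.p6, found for all 8 genes by gene ID, and are written 5′ to 3′ on the strand of the gene. Capitals mark 3 motifs searched on both strands: AAACACA (the H1 box), CCAAT, and TATAAA or TATATA (the TATA box, whose matches can overlap each other).
Hist1h1a (chr13:23763538-23763667, plus strand): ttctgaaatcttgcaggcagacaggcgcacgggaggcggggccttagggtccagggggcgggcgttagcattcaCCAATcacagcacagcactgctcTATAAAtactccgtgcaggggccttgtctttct
Hist1h1b (chr13:21780626-21780755, minus strand): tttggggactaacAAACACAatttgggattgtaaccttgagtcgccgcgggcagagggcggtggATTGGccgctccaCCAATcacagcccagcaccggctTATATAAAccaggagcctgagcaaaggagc
Hist1h1c (chr13:23738677-23738806, plus strand): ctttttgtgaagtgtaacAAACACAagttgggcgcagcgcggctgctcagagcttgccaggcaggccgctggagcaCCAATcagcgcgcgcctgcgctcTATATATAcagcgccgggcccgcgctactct
Hist1h1t (chr13:23695681-23695810, plus strand): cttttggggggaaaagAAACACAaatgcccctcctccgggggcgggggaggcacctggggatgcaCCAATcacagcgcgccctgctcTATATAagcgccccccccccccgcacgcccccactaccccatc
H1f0 (chr15:79028082-79028211, plus strand): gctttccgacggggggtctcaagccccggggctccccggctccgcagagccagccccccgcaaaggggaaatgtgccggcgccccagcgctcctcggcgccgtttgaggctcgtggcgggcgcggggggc
H1fx (chr6:87981483-87981612, minus strand): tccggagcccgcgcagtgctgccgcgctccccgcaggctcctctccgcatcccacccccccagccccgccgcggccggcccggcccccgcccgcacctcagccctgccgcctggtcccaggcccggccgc
The H1 box stood in 5 of the 8 promoters. Counted from the start site, its first base lay at -117 in Hist1h1b, at -112 in Hist1h1c and at -114 in Hist1h1t, and at -122 in Hist1h1d and -115 in Hist1h1e, whose sequences are not printed. CCAAT and a TATA motif stood in all 6 Hist1h1 promoters, where Hist1h1b held CCAAT also on the minus strand, printed as ATTGG. No match to any of the 3 motifs was present in this window of H1f0 or H1fx, and none to the H1 box in Hist1h1a. Over windows of the same length at 32851 RefSeq start sites, 2.98% held the H1 box, 22.4% CCAAT, 8.57% a TATA motif and 0.125% all 3. The G and C content of the window was 76.92% for H1f0 and 83.85% for H1fx, between 55.38% and 66.15% for the Hist1h1 genes, and 53.85% at the median start site. A match is a description of letters and not a measured binding site.

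H1f0 and H1fx held most of the linker histone RNA that was counted in every library. Levels per length are given as CPM per kb, where CPM is a gene's count relative to the size of its library and kb the kilobases of counted exon, with TMM scaling over the 12 libraries, as mean ± SD of 3 libraries. In set 1 wild type cells H1f0 was at 63.8 ± 5.72 CPM per kb, H1fx at 11.7 ± 1.26, Hist1h1c at 1.04 ± 0.535 and Hist1h1a at 1.005 ± 0.374. The remaining 4 genes were between 0.0392 (Hist1h1t) and 0.293 (Hist1h1e). With these counted lengths, H1f0 lay above H1fx, and H1fx above Hist1h1c, within each group. The ranges of Hist1h1c and Hist1h1a overlapped in both set 1 groups.

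In I53A cells the order of the upper 4 was the same, with H1f0 at 100.5 ± 6.39 CPM per kb, H1fx at 10.6 ± 2.04, Hist1h1c at 2.89 ± 0.572 and Hist1h1a at 2.00 ± 0.489. The lower 4, Hist1h1b, Hist1h1e, Hist1h1t and Hist1h1d, lay between 0.137 and 0.477 with overlapping ranges. In set 2 wild type cells H1f0 was at 191 ± 2.81 CPM per kb, H1fx at 49.4 ± 5.36 and Hist1h1c at 6.22 ± 0.500, and their ranges were separate. Hist1h1a, Hist1h1b, Hist1h1e, Hist1h1d and Hist1h1t followed between 0.0226 and 0.779, each overlapping the next.

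In the libraries labelled QKO H1f0 reached 1587 ± 31.2 CPM per kb and H1fx 300.2 ± 14.3. Below them Hist1h1c was at 5.58 ± 0.709, Hist1h1b at 4.38 ± 0.553 and Hist1h1t at 2.78 ± 0.459. Hist1h1a followed at 1.29 ± 0.236, Hist1h1e at 0.480 ± 0.231 and Hist1h1d at 0.120 ± 0.0559. No neighbours in this order overlapped, and Hist1h1b and Hist1h1t stood above Hist1h1a here only. The counted stretch of H1f0 (534 bases) is shorter than its RefSeq gene span (2293 bases). Those of Hist1h1c (1560 bases) and Hist1h1d (3821 bases) are longer than the RefSeq genes (725 and 776 bases). A level per kb therefore depends on the length taken. With RefSeq gene spans as lengths, H1f0 stood at 14.9 CPM per kb in set 1 wild type cells and at 369.6 in the libraries labelled QKO, still above H1fx in both. In set 2 wild type cells the order of these genes turned. There H1f0 (102.0 CPM over 2293 bases) stood below H1fx (52.4 CPM over 1062 bases). Hist1h1d stood at 0.590 CPM per kb in the libraries labelled QKO, above Hist1h1e at 0.459, so their order turned too. No test was made between the wild type groups of the sets, whose alignments were named differently by the file headers.

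**Figure D1:**
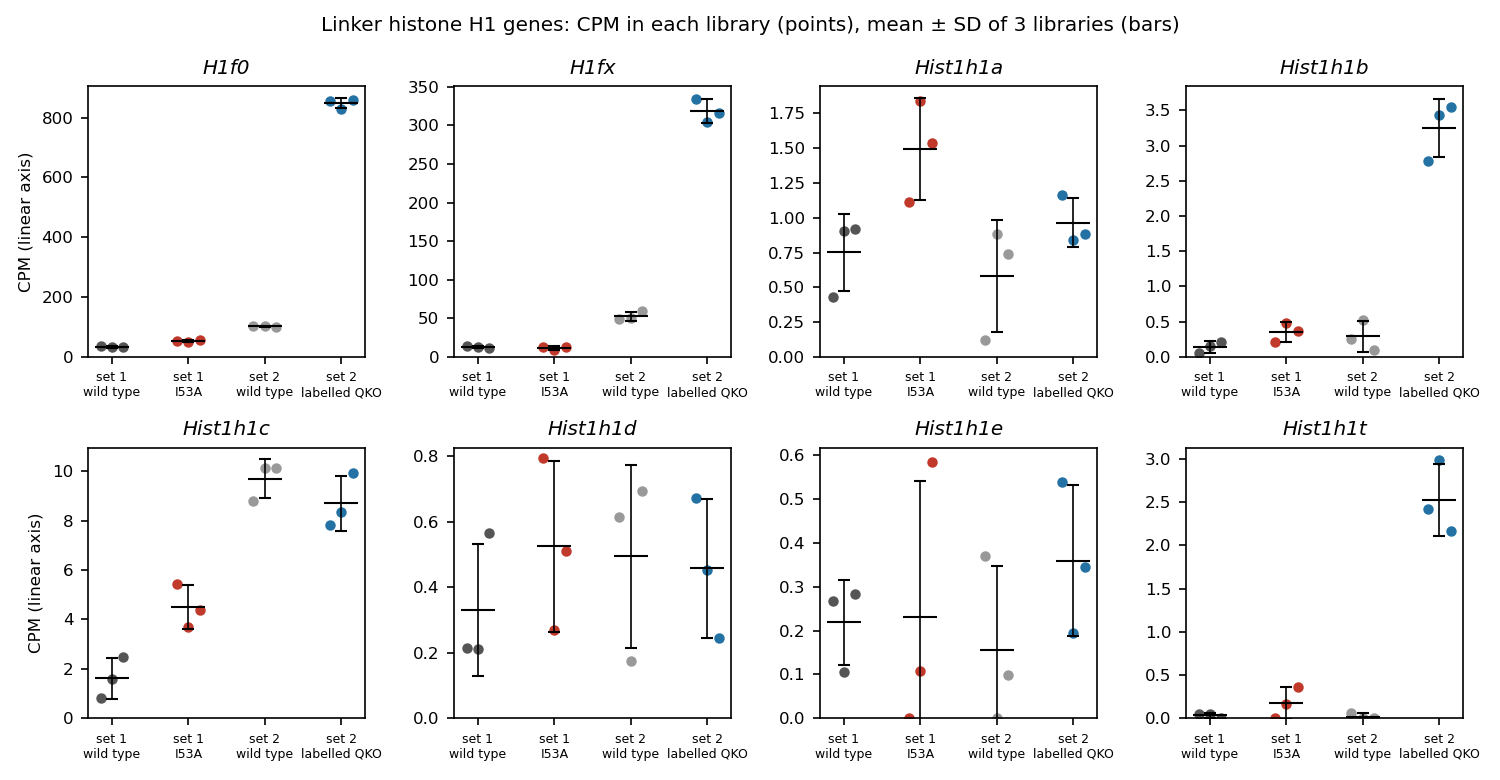
Level of each linker histone gene in CPM (linear axis, own scale per gene) in the 12 libraries, with points for libraries and bars for mean ± SD of 3. The QKO-labelled points stand apart from wild type for H1f0, H1fx, Hist1h1b and Hist1h1t, and among them for Hist1h1c, Hist1h1d and Hist1h1e.

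The first question was whether the knockout label was visible in the RNA of the 4 genes it names. Of Hist1h1b, Hist1h1c, Hist1h1d and Hist1h1e, 3 were tested with edgeR's quasi-likelihood test, of which none fell and 1 rose. Over all genes tested in set 2, 28.7% were called higher and 29.0% lower. The gene that rose, Hist1h1b, passed the low-count filter only through the libraries labelled QKO. Only Hist1h1c had enough wild type counts for a fall to be seen readily, since the summed counts of Hist1h1b, Hist1h1d and Hist1h1e in wild type were 15, 27 and 8. Their levels summed to 10.6 ± 0.537 CPM in wild type, and to 12.8 ± 1.17 CPM under the QKO label (n = 3 each). These values come from whole-gene counts, which check the label only if the deleted bases lie within the counted exons. The groups are therefore called by their label here.

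Hist1h1c, the most abundant of the 4 in wild type cells, gave 8.80, 10.15 and 10.15 CPM in set 2 wild type cells and 7.81, 8.36 and 9.94 CPM under the QKO label, from 129 to 205 counts per library. The groups overlapped. The log2 fold change was -0.14 ± 0.13 (SE, adjusted p = 0.361, edgeR). The ratio of summed counts was 0.898, with an exact 95% interval for counting error of 0.793 to 1.02.

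Hist1h1b was barely counted in wild type cells and rose under the QKO label. Its counts were 4, 9 and 2 against 62, 53 and 72, so the groups did not overlap, as was true with the mutant higher for 30.6% of all genes tested. It rose to 3.25 ± 0.411 CPM from 0.291 ± 0.218 CPM, with a log2 fold change of 3.52 ± 0.37 (adjusted p = 5.53e-12, edgeR). Without wild type replicate 2 it was 4.25, and it lay between 3.05 and 4.25 with any single replicate left out. Hist1h1b was tested only because the libraries labelled QKO had passed the low-count filter, so a difference was needed for it to be tested at all.

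Hist1h1d and Hist1h1e had at most 14 counts in any set 2 wild type library, so that a fall would be hard to detect. The counts of Hist1h1d were 10, 3 and 14 in that order of replicates and 15, 7 and 5 under the QKO label, overlapping, with a log2 fold change of -0.09 ± 0.50 (adjusted p = 0.888, edgeR). The counts of Hist1h1e were 6, 0 and 2 and then 12, 3 and 7, which overlapped, and it did not pass the filter. Its ratio of summed counts was 2.55, with a counting interval of 1.09 to 6.62 that leaves out the spread between libraries.

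Both replacement genes were higher in the libraries labelled QKO, by more than any spread between replicates. H1f0 measured 103.4, 102.2 and 100.4 CPM in the wild type replicates, and 854.5, 828.4 and 859.4 CPM under the QKO label, with no overlap. Its log2 fold change was 3.08 ± 0.04, an 8.44-fold increase (adjusted p = 1.72e-49, edgeR), the 191st highest of 15439 genes tested. H1f0 was counted over 534 bases of a RefSeq gene span of 2293. Its counts there numbered 1681 to 2029 per wild type library and 12785 to 19043 per library labelled QKO.

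H1fx measured 48.5, 49.9 and 58.95 CPM in the wild type replicates, and 334.8, 304.7 and 315.9 CPM under the QKO label, again with no overlap. Its log2 fold change was 2.62 ± 0.05, a 6.15-fold increase (adjusted p = 3.35e-32, edgeR), the 266th highest. H1fx shares 213 exon bases with the antisense gene Gm5577, and without strand in the counting, reads there cannot be told apart. Gm5577 itself had between 26 and 104 counts in any library, and had fewer than H1fx in all 12.

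Of the other 2 cluster genes, Hist1h1t was called and Hist1h1a was not. Hist1h1t had 1, 0 and 0 counts in wild type replicates and 54, 46 and 44 under the QKO label, with no overlap, and was called higher (adjusted p = 1.67e-13, edgeR). The ratio of summed counts was 133.4 with a counting interval of 23.6 to 5304, which rests on 1 wild type count, and like Hist1h1b it passed the filter only through the higher group. Hist1h1a had 2, 15 and 15 counts against 26, 13 and 18. Its wild type and QKO-labelled values overlapped, and the log2 fold change was 0.73 ± 0.42 (adjusted p = 0.137, edgeR).

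Over the family, 7 of the 8 genes were tested in set 2, of which 4 rose and none fell, where 28.7% of the 15439 genes tested were called higher and 29.0% lower. The same 4 had a fitted log2 fold change of at least 2, as did 2.96% of all genes tested, though for Hist1h1t the fitted value rests on 1 wild type count. Hist1h1b and Hist1h1t passed the filter only by differing, so the count is a description. Summed over the 8 genes, H1 came to 165.7 ± 4.78 CPM in wild type, and to 1182 ± 29.3 CPM under the QKO label. H1f0 and H1fx made up 92.84% to 93.70% of the H1 counts in the wild type libraries and 98.56% to 98.72% in those labelled QKO. Summed over the 6 Hist1h1 genes, the level was 11.2 ± 0.892 and 16.3 ± 0.865 CPM.

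**Figure D2:**
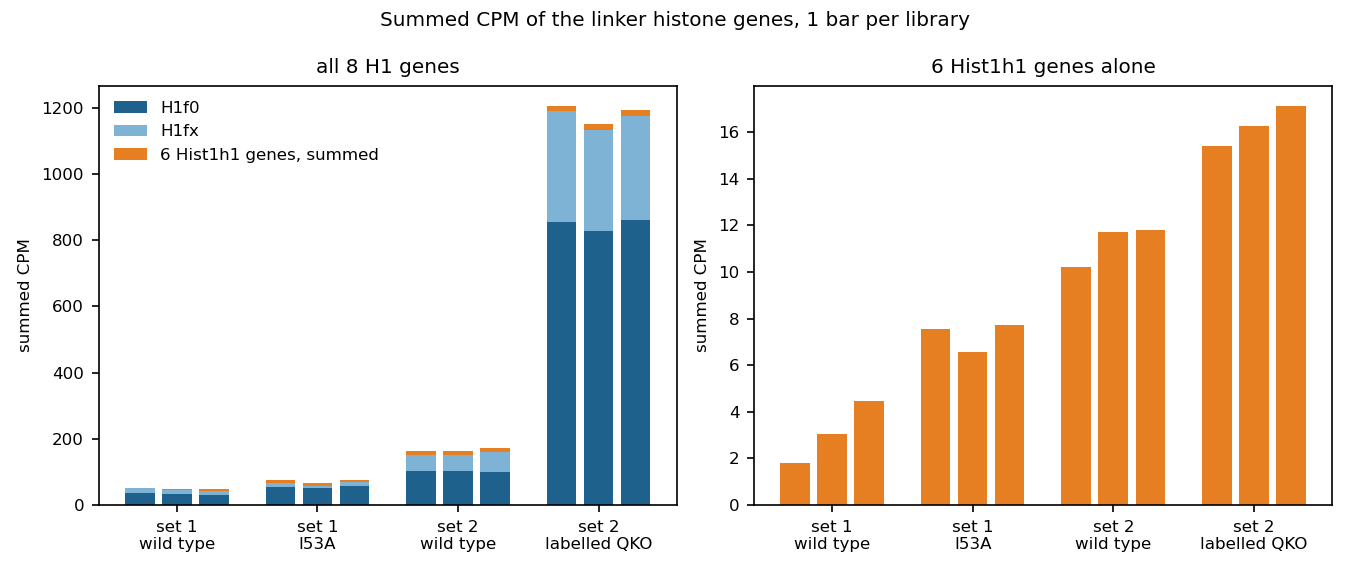
Summed CPM of the linker histone genes, with 1 bar per library, for all 8 genes split into H1f0, H1fx and the Hist1h1 genes (left) and for the 6 Hist1h1 genes alone on a smaller scale (right). The QKO-labelled bars reach 1149 to 1205 CPM against 162.1 to 171.1 in their wild type, almost all of it H1f0 and H1fx.

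Set 1 asked what a catalytic mutation of Ring1b does to the same genes. Rnf2, the gene of Ring1b, fell from 186.9 ± 9.30 to 92.8 ± 7.67 CPM (log2 fold change -0.998 ± 0.078, adjusted p = 5.63e-05, edgeR), though counts per gene do not show the mutated codon. In I53A cells H1f0 and Hist1h1c rose, and no tested H1 gene fell. Of the 8 genes 4 were tested, with 2 higher and 0 lower, where 18.1% of the 15536 genes tested were called higher and 17.4% lower.

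H1f0 measured 37.5, 33.2 and 31.55 CPM in the wild type replicates, and 53.9, 50.1 and 57.0 CPM in I53A, with no overlap. Its log2 fold change was 0.65 ± 0.10, a 1.57-fold increase (adjusted p = 0.00157, edgeR). H1fx was not called. Its values were 13.5, 12.8 and 10.9 CPM against 12.7, 8.76 and 12.3 CPM. These ranges overlapped, and the log2 fold change was -0.15 ± 0.17 (adjusted p = 0.542, edgeR).

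The counts of Hist1h1c were 15, 30 and 35 in wild type cells and 103, 68 and 60 in I53A, with no overlap. In CPM it rose from 1.62 ± 0.834 to 4.50 ± 0.892 (log2 fold change 1.49 ± 0.38, adjusted p = 0.016, edgeR). The call was lost without wild type replicate 2 (adjusted p = 0.0552, edgeR) or without I53A replicate 1 (adjusted p = 0.0722, edgeR), in a range of 9.03e-06 to 0.0722 over 14 alternatives. On replicates 1 and 2 alone, which the files name in one style, it was 1.91 (adjusted p = 9.03e-06, edgeR).

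Hist1h1a had 8, 17 and 13 counts against 21, 34 and 21, and its CPM values did not overlap, as was true with I53A higher for 24.7% of all genes tested. Its log2 fold change was 0.99 ± 0.40 (adjusted p = 0.0853, edgeR), not past the threshold, and it reached the low-count threshold in 2 wild type and 3 I53A libraries. With the replicate number as a block it was 1.02 ± 0.39 (adjusted p = 0.0379, edgeR), and on replicates 1 and 2 alone 1.13 (adjusted p = 0.0483, edgeR).

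The other 4 genes had too few counts to be tested in set 1. Hist1h1b had 1, 3 and 3 counts against 4, 9 and 5, and the ratio of summed counts was 2.57. Its counting interval of 1.02 to 7.27 leaves out the spread between libraries. With no filter beyond 1 count, its log2 fold change was 1.29 ± 0.90 and not called (adjusted p = 0.366, edgeR). Hist1h1d had 4, 4 and 8 against 15, 5 and 7, Hist1h1e 5, 2 and 4 against 0, 2 and 8, and Hist1h1t 1, 1 and 0 against 0, 3 and 5. The counting intervals of these 3 ratios, 0.876 to 3.35, 0.346 to 2.35 and 0.797 to 38.6, all held 1, so no difference was detectable at this depth.

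Summed over the 8 genes the level was 49.6 ± 2.99 CPM in wild type and 72.2 ± 6.01 CPM in I53A, and over the 6 Hist1h1 genes 3.10 ± 1.31 and 7.28 ± 0.646 CPM. The share of H1f0 and H1fx in the H1 counts was between 90.53% and 96.56% in wild type and between 89.80% and 90.00% in I53A.

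**Figure D3:**
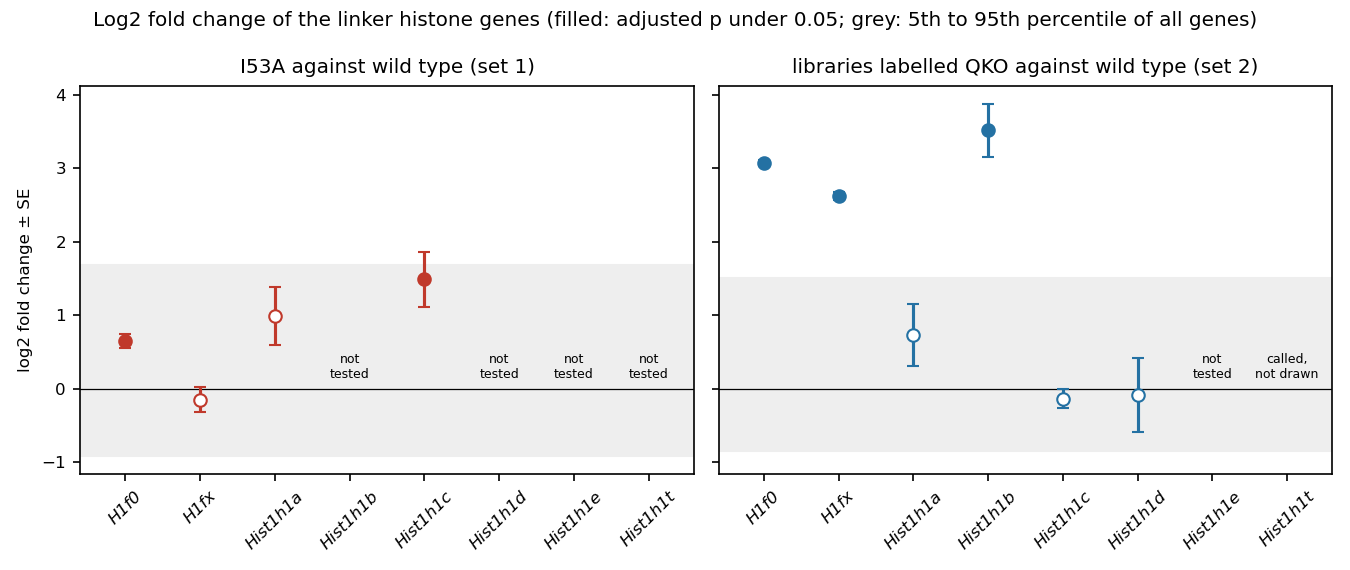
Log2 fold change ± SE of each linker histone gene in I53A (left) and in the libraries labelled QKO (right), against the wild type of its set, with filled points for adjusted p under 0.05 and a grey band from the 5th to the 95th percentile of all genes tested. H1f0 at 3.08 and H1fx at 2.62 lie above the band (to 1.501) on the right and within it (to 1.68) on the left, and Hist1h1t is not drawn since its fitted value rests on 1 wild type count.

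The effects of the mutants were compared directly as an interaction over the 12 libraries, in which each mutant was set against the wild type of its own set. H1f0 differed by -2.41 ± 0.10 on the log2 scale, I53A effect minus QKO effect (adjusted p = 2.5e-10, edgeR), and H1fx by -2.76 ± 0.17 (adjusted p = 5.34e-08, edgeR). Hist1h1c differed the other way, by 1.66 ± 0.36 (adjusted p = 0.00221, edgeR), higher in I53A and not in the libraries labelled QKO. Of 7 H1 genes tested 1 was called higher and 2 lower in this comparison, where 18.0% of the 16501 genes tested were called higher and 18.1% lower.

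For the other cluster genes the difference was not past the threshold. It was -2.17 ± 0.91 for Hist1h1b (adjusted p = 0.0759, edgeR), 0.28 ± 0.69 for Hist1h1a (adjusted p = 0.79, edgeR) and 0.83 ± 0.87 for Hist1h1d (adjusted p = 0.5, edgeR). For Hist1h1t the adjusted p was 0.085 by edgeR. DESeq2 called both Hist1h1b (adjusted p = 0.0459) and Hist1h1t (adjusted p = 0.0182).

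The core histone genes of the Hist1 cluster, which share the chromosomal region and the S-phase mode of expression with the Hist1h1 genes, were examined beside them. Of 50 in the tables, 19 were tested in set 2, of which 14 rose and none fell, but 9 of the 19 passed the low-count filter only through the libraries labelled QKO, which favours rises. Of the 8 that passed it in all 3 wild type libraries, 6 rose and none fell, where 28.7% of all genes tested were called higher. Hist1h3c (1.46) is among these 8, whereas Hist1h3d (1.90), Hist1h2be (1.73) and Hist1h3i (1.68) passed only through the libraries labelled QKO. They summed to 25.6 to 28.9 CPM in the wild type libraries, against 49.3 to 50.8 CPM under the QKO label. In set 1, 11 were tested, of which 3 rose (Hist1h4i by 2.33, Hist1h2ah by 2.10 and Hist1h2bc by 1.74) and none fell. None of the 11 passed the filter in all 3 wild type libraries and 9 passed only through I53A, so the direction of these calls is no support. The 50 genes summed to 9.06 to 22.0 CPM in wild type, against 22.1 to 33.4 CPM in I53A.

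The nearest core histone gene of each Hist1h1 gene, picked by distance after the values were seen, was called in some cases where the Hist1h1 gene was not. Hist1h3i, 2290 bases from Hist1h1b, had 4, 11 and 11 counts in set 2 wild type cells and 38, 23 and 29 under the QKO label, and both genes rose. Hist1h4c, 1341 bases from Hist1h1t, had at most 5 counts in any library while Hist1h1t had at least 44 in those labelled QKO. Hist1h3c, 4607 bases from Hist1h1c, rose in set 2 (12, 14 and 18 counts against 45, 39 and 45) where Hist1h1c had a log2 fold change of -0.14. Hist1h2be, 631 bases from Hist1h1e, rose from 6, 8 and 8 to 34, 22 and 23 counts. Hist1h3e, near Hist1h1d, and Hist1h3a, near Hist1h1a, were not past the threshold in set 2 (log2 fold changes 0.67 and -0.04).

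Of 16 genes for histone mRNA processing and the histone locus body, 2 rose and 10 fell in set 2 (median -0.18), where 28.7% of all genes tested were called higher and 29.0% lower. Lsm10, a subunit of the U7 particle that cuts histone pre-mRNA, fell by 0.54 on the log2 scale, and Zfp473, a zinc finger protein of the same machinery, rose by 0.36. In set 1, 1 rose and 8 fell (median -0.29), against 18.1% and 17.4% of all genes tested, including Upf1, needed for histone mRNA decay (-0.67), Zfp473 (-0.66) and Coil, the scaffold of Cajal bodies (-0.48).

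Of 16 S phase genes 13 fell in set 2 and none rose (median -0.39), against 29.0% and 28.7% of all genes tested, led by the transcription factor E2f1 (-0.94), the ribonucleotide reductase subunit Rrm2 (-0.94) and cyclin E1, Ccne1 (-0.85). They summed to 6162 to 6212 CPM in the wild type libraries, against 4953 to 5035 CPM under the QKO label. In set 1, 5 of 16 fell and none rose (median -0.26), where 17.4% of all genes tested fell, including Cdk2 (-0.54), and the summed level went from 4245 to 4575 CPM in wild type to 3587 to 3957 CPM in I53A. The summed S phase levels were lower in both mutants, where the called H1 genes were higher. The part of the S phase genes in the H1 results was not tested.

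Of 7 linker histone chaperones, which deposit or remove H1, 1 rose and 3 fell in set 2 (median -0.09, against 28.7% and 29.0% of all genes tested), with Nasp at -0.30, Nap1l1 at -0.23, Npm1 at -0.16 and Set at 0.24. None of the 7 was called by edgeR in set 1, where log2 fold changes lay between -0.39 and 0.17. Of 9 high mobility group (HMG) proteins, which compete with H1 for nucleosomes, 3 rose and 3 fell in set 2 and 2 rose in set 1, counts near the shares of all genes tested (28.7% higher and 29.0% lower in set 2, 18.1% higher in set 1). The nucleosome-binding Hmgn3 rose in both sets, from 3.96 ± 0.453 to 15.95 ± 1.28 CPM in set 2 (log2 fold change 2.03, adjusted p = 9.32e-20, edgeR) and from 4.60 ± 0.326 to 18.1 ± 3.54 CPM in set 1 (1.99, adjusted p = 9.98e-05, edgeR). Hmgn5 also rose in both sets, by 0.64 and 0.58, whereas Hmga2 fell by 1.08 in set 2, and its effects in the sets differed by 0.84 (adjusted p = 0.00237, edgeR).

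**Figure D4:**
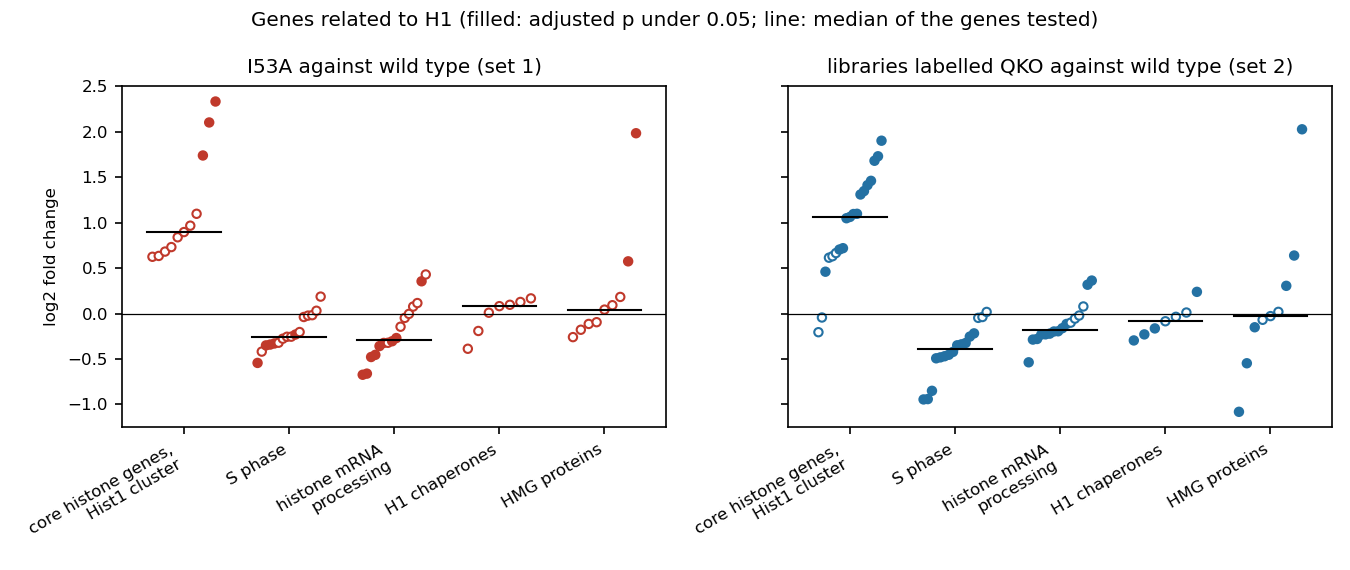
Log2 fold change of each tested gene in 5 lists related to linker histones, in I53A (left) and in the libraries labelled QKO (right), with filled points for adjusted p under 0.05 and lines for the list medians. The S phase genes have medians of -0.26 and -0.39, and 9 of 11 (left) and 9 of 19 (right) core histone points passed the low-count filter only through the mutant libraries.

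Markers of cell identity were checked beside these results. Pou5f1, a defining gene of embryonic stem cells, was at 1334 and 1287 CPM in set 1 wild type and I53A and at 1003 and 1093 CPM in set 2 wild type and QKO-labelled cells. In I53A all 8 primitive endoderm markers rose, of which 5 had passed the filter in all 3 wild type libraries, from a summed 123.6 to 134.8 CPM in wild type to 2128 to 2250 CPM, with Gata6 from 0.806 to 30.05 CPM. In set 2 their sum was 112.6 to 129.2 CPM and 135.8 to 144.6 CPM, with 3 of 6 tested called higher, of which Cubn passed only through the libraries labelled QKO. Of 6 fibroblast markers 4 were tested in set 1 and 3 in set 2, and these rose, though Col1a2 in both sets and Bgn in set 1 passed the filter only through the mutant libraries (summed 18.2 to 19.4 CPM against 45.7 to 53.8 in set 1, and 14.5 to 15.9 against 31.1 to 34.4 in set 2). Postn was at 0 in both wild type groups and Col3a1 in that of set 2. Of 8 embryonic stem cell markers, 1 rose and 4 fell in set 1, and 5 rose and 3 fell in set 2. Beside all these marker counts, 18.1% of all genes tested were called higher and 17.4% lower in set 1. In set 2 these shares were 28.7% and 29.0%. The part of these cell markers in the H1 results was not tested, and in bulk RNA a change in the share of cells of a type and a change in RNA per cell cannot be told apart.

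Genes with the most similar pattern to each H1 gene were sought by the Pearson correlation of log2 CPM over the 12 libraries, among 9964 or 9965 genes with a mean of at least 5 CPM. The 12 libraries form 4 groups of 3 in separate sets, so the r values describe likeness only, whatever the size of a change. For H1f0 they were Atf6, a stress sensor of the endoplasmic reticulum (r = 0.99), Ank2, an ankyrin that anchors membrane proteins (0.99), and Tspan7, a tetraspanin (0.99). Atf6 went from 58.4 CPM in set 1 wild type and 62.9 in I53A to 70.9 in set 2 wild type and 95.5 in the libraries labelled QKO. Ank2 was at 10.1, 12.6, 17.1 and 41.7 CPM in the same order of groups. For H1fx they were Elp3, the catalytic subunit of Elongator (0.99), Npr3, a natriuretic peptide receptor (0.99), and Phf7 (0.98), a PHD finger gene. In the same order of groups, Elp3 was at 155.0, 151.7, 189.2 and 277.1 CPM and Phf7 at 9.14, 7.07, 14.8 and 28.1 CPM.

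For Hist1h1c the nearest patterns were those of the RNA-binding proteins Khdrbs1 (0.96) and Ythdf1 (0.96) and of Srgap1 (0.96). Khdrbs1 was at 192.5 CPM in set 1 wild type and 225.8 in I53A, and at 259.3 and 256.8 in set 2. For Hist1h1b they were Mfap3 (0.98), Ept1 (0.96) and Plcb4 (0.95), with Ept1, an enzyme of phospholipid synthesis, at 72.0, 83.6, 75.0 and 128.4 CPM. Hist1h1b reached a mean of 1.01 CPM only through the libraries labelled QKO. It was at 3.25 CPM there and between 0.1417 and 0.3545 CPM in the other groups. Its r values therefore mainly restate that difference. The other 4 H1 genes averaged under 1 CPM over the 12 libraries and were not compared this way.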

How the data were processed

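Raw counts, deposited as 1 table per RNA library, were used unchanged. The authors ran featureCounts 1.6.3 on read pairs, per the file headers, with gene names from GENCODE on NCBIM37 (mm9) and no option for strand or for several alignments per fragment. Reads shared by similar H1 gene copies may therefore be lost. Per the file headers, the set 1 alignments carry TopHat and unique in their names and those of set 2 do not. The submitters' processing notes name HISAT2, Bowtie2, SAMtools, featureCounts and DESeq2 without versions. TRIzol extraction and TruSeq libraries are given per the labels' protocols. Of 93 samples, the chromatin assays were not analysed here.

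Depth ranged from 12585621 to 23378930 counts per library. Replicates differed by more than sampling noise (chi-square per degree of freedom 2.19 to 27.3 over 12 pairs), so each counted once. The labels do not say that replicates are separate cultures, so p-values measure the spread between libraries, which may be technical. Counts have no molecular identifiers, so intervals cover counting error only.

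Counts were tested with edgeR 4.0.16 (R 4.3.3), using TMM scaling, filterByExpr (minimum count 10), the robust quasi-likelihood test over the 6 libraries of a set, and Benjamini-Hochberg adjustment over all genes tested, with a threshold of 0.05, two-sided. The difference between effects was an interaction over 12 libraries. In set 1, libraries with the same replicate number deviated together (r = 0.304, 0.339 and 0.586 for numbers 1, 2 and 3). Unlike numbers 1 and 2 did so about as much (0.265 and 0.308), and number 3 stood apart from both (-0.456 to -0.399). Whether the numbers mark pairs is therefore not settled. The main tests carried no block, and blocked values are given where they change a call. Levels are CPM with TMM over 12 libraries, except those of Rnf2 and of the related lists and their genes, scaled over the 6 libraries of their set. Alternatives were DESeq2 1.42.0, other scaling, filters, dispersion, lengths, the block and leaving out each replicate.

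The H1 genes and the related lists were chosen with earlier results of these data known. The text names all H1 genes, up to 4 called genes per list by size of change, and the 3 nearest patterns of each H1 gene at 1 CPM or more. Genes named outside it were chosen after their values were seen.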

Additional observations from a re-analysis of the deposited data

Results flagged for a closer look

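The I53A effect minus the QKO effect, tested as an interaction in edgeR over 12 libraries and given on the log2 scale, passed an adjusted p of 0.05 for 3 H1 genes. It was -2.41 for H1f0, where the groups did not overlap in either set and both effects were upward. It was -2.76 for H1fx and 1.66 for Hist1h1c.

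Among related genes named by the same rule, it was -2.14 for Hist1h3i and 1.31 for Hist1h2bc of the core histone genes. For histone mRNA processing it was -1.0045 for Zfp473, 0.68 for Ncbp2, -0.60 for Upf1 and 0.37 for Sympk. For chaperones and HMG proteins it was -0.41 for Set, 0.84 for Hmga2 and 0.39 for Hmga1. For S phase genes it was 0.94 for E2f1, 0.73 for Rrm2, 0.68 for Ccne2 and 0.62 for Ccne1. For markers of embryonic stem cells it was -1.34 for Zfp42, -0.81 for Sox2, 0.80 for Tdgf1 and -0.79 for Nanog. For markers of other cells it was 5.53 for Gata6, 5.45 for Cubn, 4.99 for Gata4, 4.48 for Dab2 and 3.36 for Bgn. Groups of 3 libraries were too small for a search for outlying samples.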

How the results depend on the processing

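The calls of H1f0, H1fx, Hist1h1b and Hist1h1t in set 2, and of H1f0 in set 1, held under every alternative run. The number of H1 genes called higher in set 1 ranged from 1 to 2 when single replicates were left out, and was 3 with the replicate block. The block gave 4371 genes higher and 4427 lower in set 1, against 2808 and 2704 without it, and replicates 1 and 2 alone gave 4146 lower. In set 2 the numbers share only a number (r = 0.013, -0.023 and 0.047), and the block gave 4517 higher and 4563 lower and changed no H1 call. DESeq2 called 4 H1 genes lower in the difference between effects, against 2. With replicates left out, uncalled log2 values changed sign for H1fx in set 1 (-0.24 to 0.01), Hist1h1d in set 2 (-0.54 to 0.25) and Hist1h1a in the difference (-0.12 to 0.71). The cause was not tested. Without set 1 wild type replicate 1 or set 2 wild type replicate 2, Hist1h1b was called in the difference (adjusted p = 0.0491 and 0.0224, edgeR), and so was Hist1h1t without I53A replicate 3 (0.0367). Hist1h1t was called in the difference in 3 of 19 alternatives, DESeq2 among them, with a lowest adjusted p of 0.0158 (edgeR). RefSeq spans in place of counted lengths, added after seeing the data, moved 13 of 32 levels per kb by more than 1 SD, and library totals moved 2. Other scalings moved the median of all genes by at most 0.026. Low counts limit the cluster genes, where a library's floor of 3 counts was 0.128 to 0.238 CPM. For Hist1h1c this holds in set 1, with 15, 30 and 35 counts in wild type, more than in set 2.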
